A study of Mus musculus with 9 samples.

Results

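Ribosome-bound RNA of D1 medium spiny neurons was compared between control mice and mice with a deletion of the neurotrophin receptor TrkB in these cells that showed no stereotypy. The comparison used 6 of the 9 libraries of the series, 3 per group, and left out the libraries of TrkB-deleted mice with stereotypy (repetitive behavior). Control mice carried Cre recombinase under the D1 dopamine receptor gene (D1-Cre) and RiboTag (RT), a hemagglutinin (HA) tag on a ribosomal protein that Cre switches on. Mice of the deleted group carried D1-Cre and RT and also floxed TrkB (flTrkB). Both groups were of the C57BL/6 strain and at postnatal day 28, and both gave dorsal striatum tissue, from which polyribosomes were precipitated with an antibody to HA. In all, 13342 of 47729 gene identifiers reached 1 CPM (a read count scaled to the depth of its library) in at least 3 of the 6 libraries and were tested.

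Some features limit these groups as a model. D1-Cre is active wherever the D1 receptor gene is, so deletion need not stop at the dorsal striatum. The mice of the deleted group were set apart from others of their genotype by behavior. The labels call the libraries of a group biological triplicates and state neither sex, nor batch, nor whether animals were pooled. RNA from before precipitation was not analysed here, so the enrichment for D1 neurons has no measured baseline. In such bulk RNA, fewer cells of a type and less RNA per cell cannot be told apart.

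TrkB, encoded by Ntrk2, is the receptor of brain-derived neurotrophic factor (BDNF). In the striatum BDNF arrives mainly in axons from the cortex, and TrkB on medium spiny neurons, the GABAergic output cells of the striatum, passes the signal on through adaptor proteins to the Ras, Raf, MEK and ERK cascade, to PI3K and Akt, and to phospholipase C gamma. ERK signalling switches on immediate early genes and also its own inhibitors, among them Sprouty and Spred proteins and dual-specificity phosphatases (DUSPs). Medium spiny neurons of the direct pathway carry D1 receptors, and those of the indirect pathway carry D2 receptors.

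The 6 libraries held 32615356 to 40578512 reads, so that a gene without reads could still lie at up to 0.0739 to 0.0920 CPM, depending on the library. Along the first principal component of the log2 levels (44.4% of the variance) the groups separated, while the second (27.8%) set control 1, control 3 and deleted 3 apart from the others. Defining markers of the labelled cell type were present. Per kb of exon, Drd1, the D1 receptor gene, stood at 222 ± 28.8 CPM in the controls and 165 ± 20.4 CPM in the deleted group, and Drd2, the D2 receptor gene, at 16.8 ± 11.1 and 20.9 ± 2.997 CPM (SD, n = 3 each). The enkephalin precursor Penk, a D2 neuron marker, was nonetheless abundant, at 365 ± 224 and 299 ± 100 CPM per kb of exon, beside 196 ± 62.9 and 114 ± 10.5 CPM per kb of exon for the D1 neuron marker Tac1. Sums over D2 neuron markers were highest in replicate 3 of each group, at 1562 CPM in control 3 and 1256 CPM in deleted 3.

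The targeted gene was lower in each library of the deleted group. Ntrk2 (ENSMUSG00000055254, GRCm38 chromosome 13, 58806569 to 59133970) was at 319, 385 and 487 CPM in the controls and 23.4, 14.1 and 19.2 CPM in the deleted group, which leaves 4.76% of the control mean. The groups lay far apart, with a log2 change of -4.33 (SE 0.20, limma adjusted p = 0.000123). Here and below, a change is that of log2(CPM + 1) in the deleted group minus control, a scale that understates changes of low genes. Libraries are called control 1 to 3 and deleted 1 to 3 by their replicate numbers.

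Of the 13342 tested genes, 575 (4.31%) passed an adjusted p of 0.05 in limma, 313 higher (2.35%) and 262 lower (1.96%). The last 2 shares are those to set beside the counts of every gene list below. With edgeR 567 genes (4.25%) passed. Of the called genes, 559 were protein coding, 122 rose and 72 fell by more than 2-fold, and in all 575 the 3 libraries of one group lay above the 3 of the other, as in 3440 (25.8%) of all tested genes. The scatter plot of both groups' mean levels shows Ntrk2, Vgf, Ccnd2 and Fst well below the line of equal levels and Ceacam10, Plce1 and Cxcl14 well above it. When single libraries were left out, 73 genes (35 higher, 38 lower) kept their call each time. The count was 76 without deleted 1 (37 higher, 39 lower), 140 without deleted 2 (71 and 69), 301 without deleted 3 (157 and 144) and 173 without control 1 (90 and 83), and without control 3 the number lower was 167. Deleted 1 and deleted 2 were the most alike of the pairs within a group. Their log2 levels had a Pearson correlation of 0.994, beside 0.979 to 0.987 for the other such pairs. The reason for this likeness was not tested. Sizes moved less than calls: of the 127 called genes that the naming rule picked, 0 shifted by more than 1.5-fold when any 1 library was left out, the largest shift being 0.56 on the log2 scale. Genes that kept their call in every such fit are said to have held it.

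**Figure D1:**
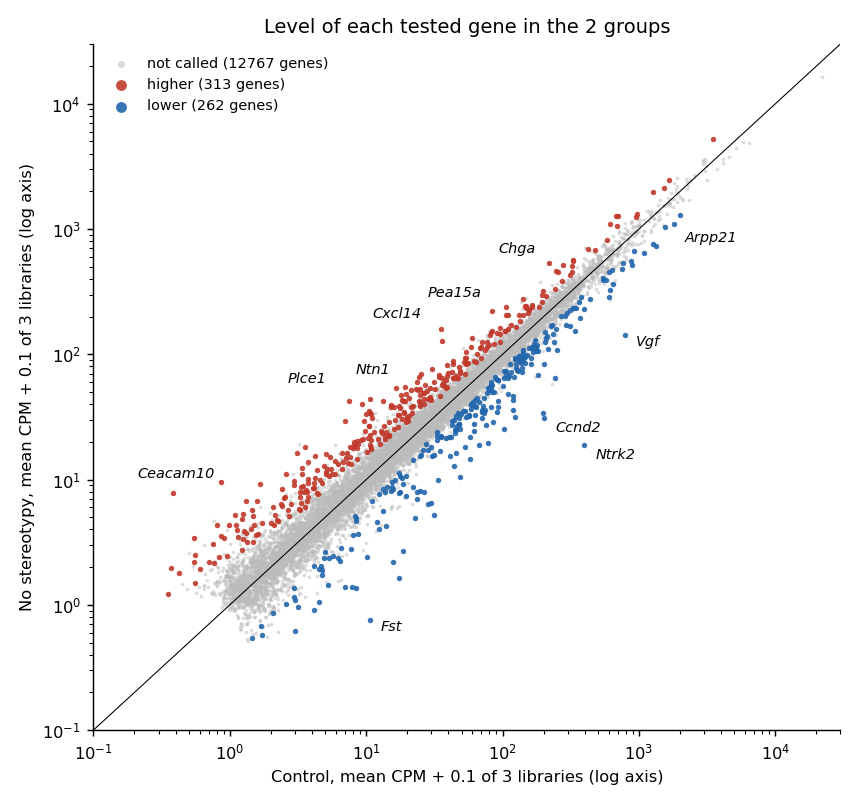
Mean level of each of the 13342 tested genes in the 3 control libraries (x axis) and the 3 libraries without stereotypy (y axis), both as CPM + 0.1 on log axes. Red points are the 313 genes called higher and blue points the 262 called lower, grey points were not called, and the line marks equal levels.

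Among called protein-coding genes with a mean of at least 5 CPM, the 12 largest falls were in Ntrk2, in Vgf, Egr2, Per2, Shc3, Spred3 and Spry2, which are given with their gene groups, and in Fst, Tagln, Ccnd2, Pou3f1 and Myo3b. Fst, whose product follistatin binds and blocks activins, was at 9.17, 9.31 and 13.2 CPM in the controls and 0.672, 0.812 and 0.493 CPM in the deleted group. Fst changed by -2.79 (SE 0.19, limma adjusted p = 0.000538). The cyclin gene Ccnd2 (chromosome 6, 127125162 to 127152193), which drives entry into the cell cycle in dividing cells and is also expressed in neurons, stood at 222, 175 and 208 CPM in the controls and 34.9, 26.9 and 31.3 CPM in the deleted group. Its log2 change was -2.66 (SE 0.13, limma adjusted p = 0.000123), and the highest library of the deleted group stood far below the lowest control. Pou3f1, a POU-domain transcription factor, was at 185, 194 and 211 CPM in the controls and 40.01, 28.6 and 32.2 CPM in the deleted group. Pou3f1 changed by -2.53 (SE 0.13, limma adjusted p = 0.000123). Tagln, a smooth muscle actin-binding gene, was at 13.7, 9.59 and 28.3 CPM in the controls and 1.42, 1.48 and 1.700 CPM in the deleted group. Tagln changed by -2.71 (SE 0.33, limma adjusted p = 0.00607), and its exons overlap those of Pcsk7 on the genome, so its reads may not all be its own. Tagln is also a marker of vascular smooth muscle. The other vascular markers summed to 31.01, 11.4 and 16.6 CPM in the controls and 27.04, 14.7 and 20.5 CPM in the deleted group, so the groups overlapped. The unconventional myosin Myo3b was at 18.4, 8.601 and 20.1 CPM in the controls and 1.99, 1.99 and 2.32 CPM in the deleted group. Myo3b changed by -2.35 (SE 0.28, limma adjusted p = 0.006). All of these held their call whichever library was left out.

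**Figure D2:**
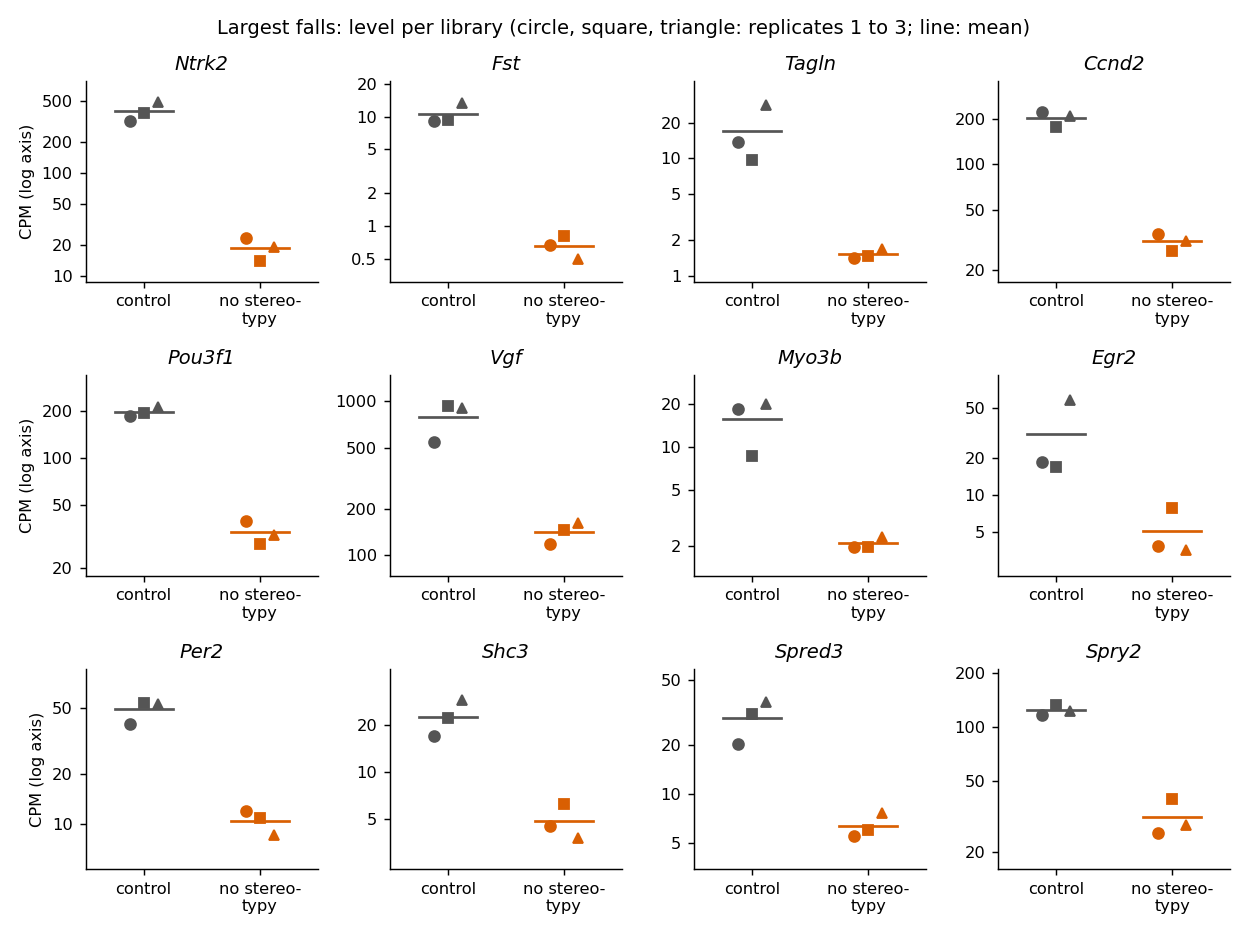
Level in CPM (log axis, scaled per gene) of the 12 genes with the largest falls among called protein-coding genes with a mean of at least 5 CPM, in each of the 3 control libraries (grey) and 3 libraries without stereotypy (orange), with the group mean as a line. In all 12 panels the 3 orange points lie below the 3 grey points, and in Egr2 and Tagln control 3 is well above the other controls.

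Among neurotrophin receptors, ligands and adaptors, 0 of 22 tested genes rose and 5 fell, with a median log2 change of -0.06 beside 0.03 over all tested genes. Fallen genes of this list numbered 2 to 4 (fewest without deleted 1) when 1 library was left out, with medians from -0.11 to -0.02. Apart from Ntrk2 the largest fall was in Shc3, an adaptor that links TrkB to Ras, at 17.00, 22.4 and 28.97 CPM in the controls and 4.47, 6.19 and 3.77 CPM in the deleted group. The log2 change of Shc3 was -2.02 (SE 0.22, limma adjusted p = 0.00466) and held. Sorcs1 and Sorcs2, sorting receptors of the family that binds neurotrophin precursors, changed by -0.78 (adjusted p = 0.0127) and -0.65 (adjusted p = 0.0135). Their calls were lost without control 1 for Sorcs1 (adjusted p = 0.0566), without deleted 1 for both (adjusted p from 0.0662 to 0.0743) and without deleted 2 for Sorcs2 (adjusted p = 0.0646). Ntrk3, the gene of the related receptor TrkC, stood at 292, 342 and 303 CPM in the controls and 210.4, 230.5 and 235 CPM in the deleted group (log2 change -0.47, adjusted p = 0.0367), and its call was lost whichever library was left out, at adjusted p of up to 0.183. Bdnf itself was low and did not pass, at 9.25, 2.12 and 13.7 CPM in the controls and 2.22, 1.76 and 10.6 CPM in the deleted group. Genes of the PI3K, Akt and mTOR branch did not pass in any of 21 cases (0 of 21 also with edgeR, and 5 at an unadjusted p under 0.05), with a median of -0.04 (-0.06 without deleted 2 and 0.00 without control 3).

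Of 7 tested Sprouty and Spred genes 4 fell and 0 rose, with a median log2 change of -1.77, and all 4 held their call. Sprouty and Spred proteins block the activation of Ras and Raf below receptor tyrosine kinases. Spred1 (chromosome 2, 117121374 to 117182279) was at 247, 219.7 and 257 CPM in the controls and 68.6, 63.6 and 63.1 CPM in the deleted group. Spred1 changed by -1.87 (SE 0.10, limma adjusted p = 0.000123). Spry2 stood at 117, 132 and 122 CPM in the controls and 25.7, 39.8 and 28.2 CPM in the deleted group, or 25.3% of the control mean, and the groups were separated by a wide gap. For Spry2 the log2 change was -1.97 (SE 0.16, limma adjusted p = 0.00116), for Spred2 -1.77 (SE 0.14, limma adjusted p = 0.00112) and for Spred3 -2.02 (SE 0.22, limma adjusted p = 0.00441). Spry4 had a log2 change of -1.35, but its controls ranged from 2.999 to 11.3 CPM and it did not pass (adjusted p = 0.0908). Spry1 and Il17rd, with log2 changes of -0.37 and 0.01, did not pass either.

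Of 9 tested DUSP genes 3 fell and 0 rose, with a median of -0.56 and all 9 values below 0. Fallen DUSP genes numbered 1 to 3 (fewest without control 1, deleted 1 or deleted 3) when 1 library was left out, with medians from -0.69 to -0.42. Dusp6, a cytoplasmic phosphatase that inactivates ERK, was at 67.3, 58.1 and 107 CPM in the controls and 17.7, 25.3 and 15.7 CPM in the deleted group. Dusp6 changed by -1.91 (SE 0.25, limma adjusted p = 0.00763) and held its call. Dusp5, which inactivates ERK in the nucleus, was at 9.91, 12.1 and 19.6 CPM in the controls and 4.19, 5.63 and 2.71 CPM in the deleted group. Dusp5 changed by -1.51 (SE 0.28, limma adjusted p = 0.0287). Control 3 was the highest library for both genes, and 22.1% of the exon bases of Dusp5 overlap AC137853.2. The call of Dusp5 was lost without control 1 (adjusted p = 0.0586), deleted 1 (0.117) or deleted 3 (0.0649). Dusp4, at a far lower level of 1.72, 2.26 and 4.75 CPM in the controls and 0.336, 0.504 and 0.715 CPM in the deleted group, changed by -1.30 (adjusted p = 0.041), a call lost without any single library but control 3 (adjusted p from 0.0613 to 0.169). Among ETS transcription factors, which ERK phosphorylates or induces, Etv5 fell and the other 6 tested did not pass (median -0.13). Etv5 stood at 61.6, 77.7 and 115 CPM in the controls and 29.2, 24.8 and 32.7 CPM in the deleted group. Etv5 changed by -1.48 (SE 0.22, limma adjusted p = 0.0122), and its call was lost without deleted 1 (adjusted p = 0.062).

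The kinases of the cascade itself showed no common direction. Of 26 tested cascade kinases and Ras activators 3 rose and 1 fell, with a median of -0.02. Called members numbered 1 to 2 higher (fewest without control 1, deleted 1, deleted 2 or deleted 3) and 0 to 1 lower (fewest without control 1, control 3, deleted 1, deleted 2 or deleted 3) when 1 library was left out, with medians from -0.04 to 0.03. The largest change was a rise of Pea15a (chromosome 1, 172196728 to 172206804), whose product holds ERK in the cytoplasm. Pea15a was at 79.1, 77.8 and 95.6 CPM in the controls and 234, 222 and 209 CPM in the deleted group. Pea15a changed by 1.39 (SE 0.11, limma adjusted p = 0.00112) and held its call. Rasgrf2, a calcium-responsive Ras activator, and Ksr1, a scaffold that brings Raf, MEK and ERK together, changed by 0.80 (adjusted p = 0.0451) and 0.79 (adjusted p = 0.0482). Rps6ka3, the ERK-activated kinase RSK2, changed by -0.59 (adjusted p = 0.0294). Those calls were lost without control 1 for all 3 (adjusted p from 0.0945 to 0.109), without control 2 for Rasgrf2 (adjusted p = 0.0621), without control 3 for Ksr1 and Rps6ka3 (adjusted p from 0.0594 to 0.0831), without deleted 1 for all 3 (adjusted p from 0.133 to 0.17), without deleted 2 for all 3 (adjusted p from 0.118 to 0.158) and without deleted 3 for all 3 (adjusted p from 0.0563 to 0.0906).

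Immediate early genes, which neuronal activity and growth factors induce within minutes, fell in 6 of 23 cases and rose in 0, with a median of -0.75. Egr1, the zinc-finger factor most used as an activity marker, was at 542, 465 and 814 CPM in the controls and 282, 298 and 287 CPM in the deleted group. Egr1 changed by -1.03 (SE 0.19, limma adjusted p = 0.0254). Egr2, a related factor, was at 18.5, 16.7 and 58.1 CPM in the controls and 3.85, 7.899 and 3.57 CPM in the deleted group. Egr2 changed by -2.23 (SE 0.46, limma adjusted p = 0.0355). Homer1, a postsynaptic scaffold with an activity-induced short form, was at 167, 116 and 266 CPM in the controls and 68.1, 61.4 and 76.03 CPM in the deleted group. Homer1 changed by -1.33 (SE 0.26, limma adjusted p = 0.032). In each of these control 3 was the highest library, and the groups did not overlap. The nuclear receptor Nr4a3, the AP-1 subunit Fosb and the zinc-finger factor Egr4 changed by -1.64 (adjusted p = 0.0281), -1.58 (adjusted p = 0.0339) and -1.29 (adjusted p = 0.0339). Of the 6 calls 0 held, and the list had 1 fallen member without control 1, 0 without deleted 1, 2 without deleted 2 and 1 without deleted 3. Calls of the remaining 4 were lost without control 1 for all 4 (adjusted p from 0.0534 to 0.11), without control 2 for Fosb (adjusted p = 0.058), without deleted 1 for all 4 (adjusted p from 0.125 to 0.145), without deleted 2 for all but Nr4a3 (adjusted p from 0.0526 to 0.107) and without deleted 3 for all 4 (adjusted p from 0.063 to 0.0889). Neither Egr1 nor Egr4 held its call, with adjusted p of up to 0.117 and 0.138 when 1 library was left out. The list's median was -0.98 without control 1 and -0.25 without control 3. Control 3 stood apart most in Fos and Arc, named here after their values were seen. Fos was at 6.68, 7.89 and 49.9 CPM in the controls and 3.98, 9.05 and 5.72 CPM in the deleted group and Arc at 58.4, 52.8 and 409 CPM in the controls and 43.2, 91.6 and 61.5 CPM in the deleted group, and neither passed (adjusted p = 0.387 and 0.587). When 1 library was left out the change of Arc ranged from -1.30 to 0.17, so its direction was not stable.

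Promoter sequences are shown for 2 of these fallen genes because both hold the binding motif of serum response factor, through which ERK acts on early genes. The motif, the CArG box, is in capitals. Each stretch lies just before a RefSeq transcript start (GRCm38.p6, for Egr2 one of several) and is written 5′ to 3′ on the strand of the gene, at chr10:67537733-67537832 (plus strand) for Egr2 and chr19:53529009-53529108 (plus strand) for Dusp5.
Egr2: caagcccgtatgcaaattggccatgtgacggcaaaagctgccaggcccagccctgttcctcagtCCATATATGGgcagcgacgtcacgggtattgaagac
Dusp5: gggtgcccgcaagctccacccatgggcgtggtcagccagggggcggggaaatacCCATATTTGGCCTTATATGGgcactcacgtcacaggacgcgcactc
Dusp5 holds 2 such boxes end to end. On both strands of windows from 250 bases before to 50 after a start, a CArG box was found in 1.63% of all 32851 windows. By gene, it was found for 488 of all 27025 genes with windows (1.81%). It was found for 4 of 196 fallen genes (2.04%), 7 of 239 risen genes (2.93%) and 131 of 9236 genes not called (1.42%) with windows. The CArG box is thus in few promoters of either direction. The ETS motif (CCGGAAG) was found for 8.16% of fallen, 7.11% of risen and 20.5% of uncalled genes. In the same order the CRE (TGACGTCA) was found for 0.51%, 2.09% and 3.85%. The AP-1 motif (TGANTCA) was found for 6.12%, 9.2% and 5.5%, and the EGR motif (GCGTGGGCG) for 0%, 2.51% and 1.42%. A match is a description of the letters, not of binding.

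Secretory granule genes moved in both directions. Vgf (ENSMUSG00000037428, GRCm38 chromosome 5, 137026392 to 137033351), a neuropeptide precursor that neurotrophins induce, was at 542, 930.3 and 904 CPM in the controls and 117, 146 and 162 CPM in the deleted group. The groups were far apart, with a log2 change of -2.45 (SE 0.21, limma adjusted p = 0.00148) that held. Chga, the granule protein chromogranin A, rose and held, at 227, 178 and 255 CPM in the controls and 521, 523 and 549.6 CPM in the deleted group (log2 change 1.28, SE 0.13, limma adjusted p = 0.00312). Pam, the enzyme that amidates peptides, stood at 225, 242 and 236 CPM in the controls and 141, 149 and 147 CPM in the deleted group. Pam changed by -0.68 (adjusted p = 0.006), a call lost without deleted 1 (adjusted p = 0.0555). In the list of 11 granins and processing enzymes these were the only calls (1 higher, 2 lower, median -0.27). Called granule genes numbered 1 higher and 1 to 3 lower (fewest without deleted 1) when 1 library was left out, with medians from -0.35 to -0.08. Of 11 tested neuropeptides 1 rose, Trh, the precursor of thyrotropin-releasing hormone, which went from 3.15, 3.395 and 4.32 CPM to 10.2, 13.3 and 17.7 CPM. Trh changed by 1.65 (SE 0.21, limma adjusted p = 0.00712) and held its call. Tac1 and Penk, the precursors that mark D1 and D2 neurons, did not pass, at -0.72 (adjusted p = 0.132) and -0.17 (adjusted p = 0.854).

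Of 19 circadian clock genes 4 fell and 1 rose, with a median of -0.37. Called clock genes numbered 0 to 1 higher (fewest without control 1, deleted 1 or deleted 2) and 1 to 4 lower (fewest without control 1, deleted 1 or deleted 2) when 1 library was left out, with medians from -0.38 to -0.32. Per2, which represses its own activators CLOCK and BMAL1, was at 39.8, 53.8 and 53.1 CPM in the controls and 11.9, 10.9 and 8.55 CPM in the deleted group. Its log2 change was -2.12 (SE 0.17, limma adjusted p = 0.00112), and it was the only call of the list that held. The clock repressors Ciart and Bhlhe40 changed by -1.35 (adjusted p = 0.0403) and -1.08 (adjusted p = 0.0389), and in both control 2 was the highest library, with Ciart at 30.1, 71.3 and 35.9 CPM in the controls and 14.99, 19.2 and 14.5 CPM in the deleted group. Rora, a nuclear receptor that activates Bmal1, changed by -0.76 (adjusted p = 0.0254). Nfil3, a repressor of the same promoters that Dbp activates, rose by 1.14 (adjusted p = 0.0127). The calls were lost without control 1 for all 4 (adjusted p from 0.0588 to 0.0696), without control 3 for Ciart and Bhlhe40 (adjusted p from 0.054 to 0.0559), without deleted 1 for all 4 (adjusted p from 0.0776 to 0.157), without deleted 2 for all 4 (adjusted p from 0.0582 to 0.0863) and without deleted 3 for Ciart and Bhlhe40 (adjusted p from 0.0946 to 0.0975). The labels give no time of day for tissue collection, so its part in these values was not tested.

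The Ciart promoter is shown because CLOCK and BMAL1 bind E-boxes, and it holds 3 of them (CACGTG, in capitals, palindromic and so the same on both strands). The stretch lies just before the RefSeq start, at GRCm38.p6 chr3:95882265-95882364, minus strand.
Ciart: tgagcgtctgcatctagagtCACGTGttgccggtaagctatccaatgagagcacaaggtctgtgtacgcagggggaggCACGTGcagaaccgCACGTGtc
An E-box was present in 7.15% of all windows and for 2187 of all 27025 genes with windows (8.09%). By gene it was found for 23 of 196 that fell (11.7%), 23 of 239 that rose (9.62%) and 1110 of 9236 not called (12.02%).

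Among the 12 largest rises at a mean of at least 5 CPM were genes of signalling, adhesion and secretion. Plce1 (ENSMUSG00000024998, GRCm38 chromosome 19, 38481109 to 38785030), a phospholipase C that Ras binds and that also activates the small GTPase Rap, was at 7.31, 8.403 and 6.29 CPM in the controls and 40.7, 47.7 and 38.02 CPM in the deleted group. The level was 5.75 times the control mean, with a log2 change of 2.37 (SE 0.15, limma adjusted p = 0.000367). Cxcl14, a secreted chemokine, was at 23.1, 28.7 and 53.7 CPM in the controls and 159, 185 and 132 CPM in the deleted group. Cxcl14 changed by 2.22 (SE 0.28, limma adjusted p = 0.00698). Tpbg, a surface glycoprotein that modulates Wnt signalling, was at 28.9, 45.4 and 33.1 CPM in the controls and 142, 129 and 114 CPM in the deleted group. Tpbg changed by 1.83 (SE 0.17, limma adjusted p = 0.00182), and 23.5% of its exon bases overlap 9330154J02Rik. Cldn23, a tight junction claudin, changed by 2.08 (adjusted p = 0.00179), Parvb, which links integrins to actin, by 1.93 (adjusted p = 0.00312), and Kirrel, an immunoglobulin-type adhesion gene, by 1.77 (adjusted p = 0.00386). All of these held.

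Rises were also called in Ntsr1, the neurotensin receptor 1, at 3.28, 1.698 and 5.46 CPM in the controls and 13.2, 10.6 and 30.4 CPM in the deleted group (log2 change 2.04, adjusted p = 0.0354), in which replicate 3 of each group was the highest. Cryab, a small heat shock protein, was at 6.62, 6.65 and 14.5 CPM in the controls and 29.4, 32.5 and 57.4 CPM in the deleted group (log2 change 2.01, adjusted p = 0.019), again with replicate 3 of each group highest. The calcium channel Trpv6 changed by 2.01 (adjusted p = 0.00945) and the adhesion gene Igsf3 by 1.72 (adjusted p = 0.0132). These calls were lost without control 1 for Ntsr1 and Cryab (adjusted p from 0.0852 to 0.124), without control 2 for Ntsr1 (adjusted p = 0.0679), without deleted 1 for all 4 (adjusted p from 0.0559 to 0.117), without deleted 2 for Ntsr1 and Cryab (adjusted p from 0.0506 to 0.053) and without deleted 3 for Ntsr1 (adjusted p = 0.0633). Cryab overlaps Hspb2, and reads of the pair may not be separable.

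**Figure D3:**
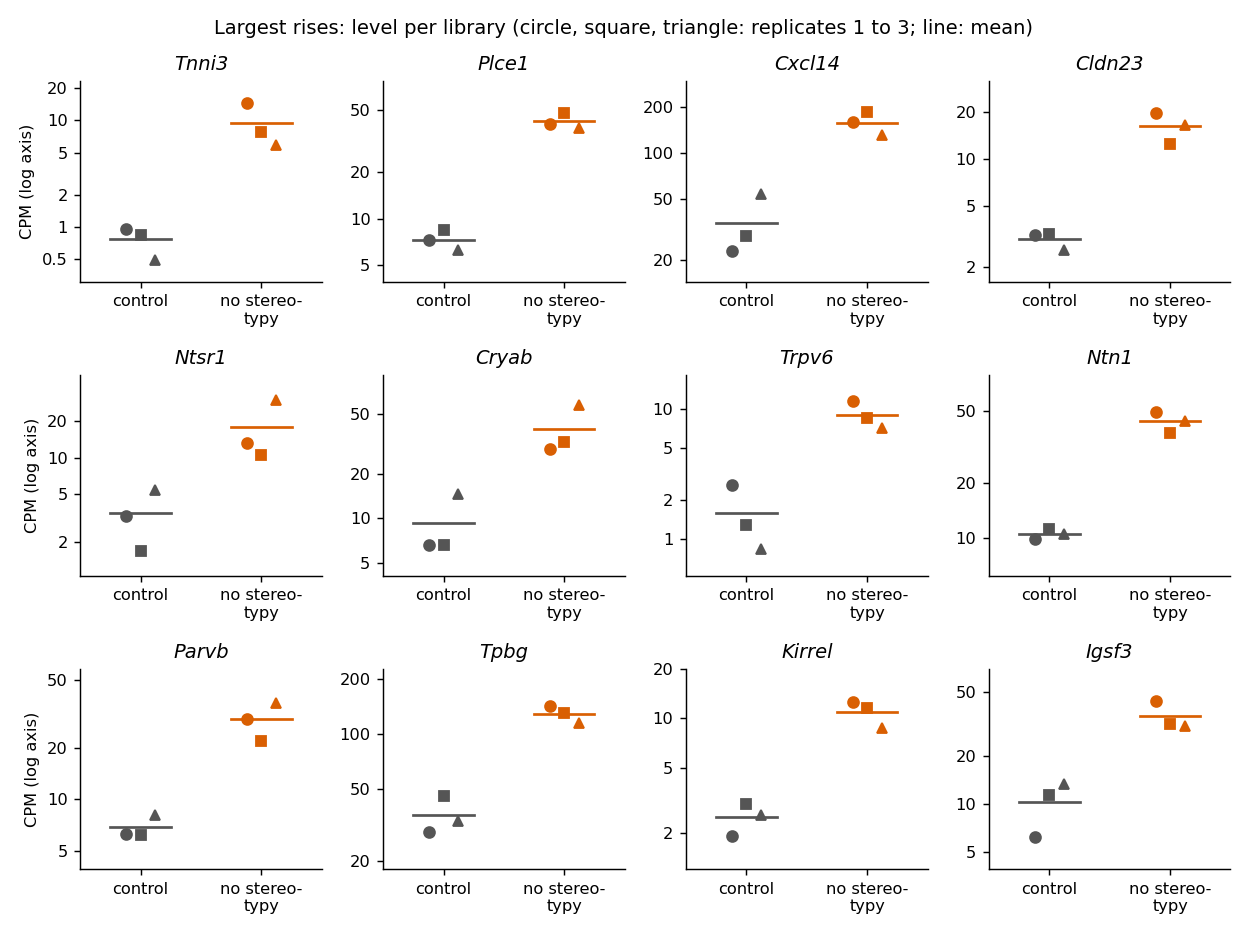
Level in CPM (log axis, scaled per gene) of the 12 genes with the largest rises among called protein-coding genes with a mean of at least 5 CPM, in each of the 3 control libraries (grey) and 3 libraries without stereotypy (orange), with the group mean as a line. In all 12 panels the orange points lie above the grey points, and in Ntsr1 and Cryab replicate 3 of each group is the highest.

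Some risen genes were barely detected in the controls. Ceacam10 (chromosome 7, 24777206 to 24784657), of the carcinoembryonic antigen family, was at 0.274, 0.424 and 0.153 CPM in the controls and 9.87, 7.002 and 6.33 CPM in the deleted group. All controls stood above the level that a count of 0 allows, and the mean rose from 0.284 ± 0.136 CPM to 7.74 ± 1.88 CPM (SD, n = 3 each). Ceacam10 changed by 2.75 (SE 0.20, limma adjusted p = 0.000668) and held its call. Tnni3, the cardiac form of the inhibitory troponin, was at 0.958, 0.849 and 0.491 CPM in the controls and 14.7, 7.81 and 5.87 CPM in the deleted group. Tnni3 changed by 2.49 (SE 0.29, limma adjusted p = 0.00541) and held its call, and it overlaps Dnaaf3. Kdr, the VEGF receptor 2 and an endothelial marker, was at 0.438, 0.255 and 0.644 CPM in the controls and 2.79, 3.92 and 3.23 CPM in the deleted group. Kdr changed by 1.58 (SE 0.18, limma adjusted p = 0.00537) and held its call. Among the 9 tested vascular markers Kdr was the only one called higher and Tagln the only one called lower (median -0.10, -0.43 without control 2 and 0.17 without control 1). Cldn5, the tight junction gene that defines brain endothelium, was at 7.91, 2.57 and 2.88 CPM in the controls and 6.46, 1.82 and 2.44 CPM in the deleted group. Besides Ceacam10, called genes with all 3 controls under 0.5 CPM were the matrix proteoglycan gene Fmod, the phosphatase gene Ptpn6 and Tdrd5, which changed by 1.14 (adjusted p = 0.0386), 1.02 (adjusted p = 0.0254) and 0.77 (adjusted p = 0.0436). None of those 3 held. Their calls were lost without control 1 for all 3 (adjusted p from 0.0858 to 0.138), without control 2 for Fmod and Tdrd5 (adjusted p from 0.0595 to 0.0773), without control 3 for all 3 (adjusted p from 0.0545 to 0.0917), without deleted 1 for all 3 (adjusted p from 0.0662 to 0.199), without deleted 2 for all 3 (adjusted p from 0.0975 to 0.131) and without deleted 3 for Fmod and Tdrd5 (adjusted p from 0.079 to 0.0946). The reverse, a called gene with all 3 libraries of the deleted group under 0.5 CPM, did not occur (0 genes).

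Of 62 tested axon guidance cues and receptors 12 rose and 2 fell, with a median of 0.27, beside 2.35% and 1.96% of all tested genes. Ntn1 (ENSMUSG00000020902, GRCm38 chromosome 11, 68209364 to 68400823), the secreted cue netrin-1, was at 9.91, 11.1 and 10.5 CPM in the controls and 49.4, 37.95 and 43.9 CPM in the deleted group. Within each group its values lay close together, and the log2 change was 1.95 (SE 0.13, limma adjusted p = 0.000538). Slit1, a repellent cue, was at 20.9, 23.9 and 30.9 CPM in the controls and 89.7, 68.3 and 50.8 CPM in the deleted group. Slit1 changed by 1.41 (SE 0.22, limma adjusted p = 0.0138). Robo3, a receptor of the Slit receptor family, was at 6.897, 3.03 and 4.42 CPM in the controls and 14.1, 12.3 and 11.5 CPM in the deleted group, and the transmembrane semaphorin Sema6a at 3.94, 3.65 and 5.15 CPM in the controls and 14.2, 8.599 and 12.99 CPM in the deleted group. For Robo3 the log2 change was 1.29 (adjusted p = 0.0278) and for Sema6a 1.28 (adjusted p = 0.0185). Falls were called in the Slit receptor Robo2 (-0.44, adjusted p = 0.0436) and the ephrin receptor Epha4 (-0.41, adjusted p = 0.0444). Of these calls that of Ntn1 held. The others were lost without control 1 for all but Robo3 (adjusted p from 0.0675 to 0.128), without control 2 for Epha4 (adjusted p = 0.0754), without control 3 for Robo3, Robo2 and Epha4 (adjusted p from 0.0554 to 0.0956), without deleted 1 for all 5 (adjusted p from 0.0607 to 0.206), without deleted 2 for all but Sema6a (adjusted p from 0.053 to 0.153) and without deleted 3 for all but Slit1 (adjusted p from 0.0535 to 0.0975). Called guidance genes numbered 1 to 10 higher (fewest without deleted 1) and 0 to 1 lower (fewest without control 1, control 3, deleted 1, deleted 2 or deleted 3) when 1 library was left out, with medians from 0.23 to 0.40.

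Genes of medium spiny neuron identity were lower where they were called. Of 21 tested genes shared by medium spiny neurons of both pathways 6 fell and 0 rose (median -0.23), of 17 transcription factors 2 fell and 0 rose (median -0.18), and of 9 D1 neuron markers 1 fell and 0 rose (median -0.42). Fallen genes shared by both pathways numbered 0 to 5 (fewest without deleted 1 or deleted 2) when 1 library was left out, with medians from -0.35 to -0.21. Fallen transcription factors numbered 1 to 2 (fewest without control 1, deleted 1 or deleted 3) when 1 library was left out, with medians from -0.26 to -0.09. Fallen D1 markers numbered 0 to 2 (fewest without control 1, deleted 1, deleted 2 or deleted 3) when 1 library was left out, with medians from -0.46 to -0.28. Arpp21, a phosphoprotein regulated by dopamine, was among the most abundant fallen genes, at 1627, 1983 and 1840.0 CPM in the controls and 1076, 1151 and 1062 CPM in the deleted group (log2 change -0.72, SE 0.11, limma adjusted p = 0.0127). Ptpn5, the striatal-enriched tyrosine phosphatase that inactivates ERK, was at 819, 1036 and 819.5 CPM in the controls and 570.4, 575 and 395 CPM in the deleted group, and Arpp19, a PKA substrate, at 1015, 793 and 803 CPM in the controls and 549.5, 556 and 547 CPM in the deleted group. Their log2 changes were -0.81 (adjusted p = 0.0367) and -0.65 (adjusted p = 0.0246). The calcium release channel Ryr1 changed by -1.45 (adjusted p = 0.032). Foxp1, a transcription factor of these neurons, changed by -0.52 (adjusted p = 0.0294), and Eya1, a transcriptional coactivator, by -0.78 (adjusted p = 0.0386). These calls were lost without control 1 for all but Arpp21 (adjusted p from 0.0506 to 0.135), without control 2 for Ptpn5 and Eya1 (adjusted p from 0.0724 to 0.0743), without control 3 for Ptpn5 and Ryr1 (adjusted p from 0.0565 to 0.0682), without deleted 1 for all 6 (adjusted p from 0.0799 to 0.152), without deleted 2 for all 6 (adjusted p from 0.053 to 0.127) and without deleted 3 for all but Arpp21 (adjusted p from 0.0576 to 0.0903). Drd1, at 866, 865 and 684 CPM in the controls and 627, 655 and 515 CPM in the deleted group, did not pass (-0.42, adjusted p = 0.13), although all 3 libraries of the deleted group lay below the controls. The log2 change was below 0 in 7 of the 9 D1 markers and above 0 in 2. Pdyn, another D1 marker, was at 253, 261.5 and 153 CPM in the controls and 282, 367 and 298 CPM in the deleted group. Pdyn thus went the other way, likewise without overlap, and did not pass either. The groups lay apart, in either direction, in 25.8% of all tested genes. Of 6 D2 neuron markers 0 passed (0 with edgeR, 1 at an unadjusted p under 0.05), with a median of 0.49 that was 0.14 without control 1 and 0.999 without control 3.

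Markers of the matrix, the larger of the compartments of the striatum, fell in 3 of 5 cases. Another 1 went the other way, with a log2 change of 0.52 that did not pass (limma unadjusted p under 0.05). Fallen matrix markers numbered 1 to 2 (fewest without deleted 1) when 1 library was left out, with medians from -0.46 to -0.37. Id4, an inhibitor of basic helix-loop-helix factors, was at 132, 124 and 127 CPM in the controls and 78.3, 73.05 and 74.7 CPM in the deleted group, with little spread in either group and a log2 change of -0.76 (SE 0.08, limma adjusted p = 0.00481) that held. Calb1, the calcium-binding protein that marks matrix, was at 406, 305 and 312 CPM in the controls and 159, 179.5 and 124 CPM in the deleted group. Calb1 changed by -1.15 (SE 0.16, limma adjusted p = 0.011), a call lost without deleted 1 (adjusted p = 0.0563). Epha4, also a guidance receptor, is given above. Among 9 striosome markers 1 rose and 1 fell. Called striosome markers numbered 0 to 1 higher (fewest without control 1 or deleted 1) and 0 to 1 lower (fewest without control 1, control 2, deleted 1 or deleted 3) when 1 library was left out, with medians from -0.27 to -0.08. Lypd1, which modulates nicotinic receptors and overlaps Gpr39 in 17.1% of its exon bases, changed by 1.13 (adjusted p = 0.0203), a call lost without control 1 (adjusted p = 0.0624) or deleted 1 (0.0798). Oprm1, the mu opioid receptor, lay at 1.42, 1.75 and 1.66 CPM in the controls and 0.181, 0.7002 and 0.542 CPM in the deleted group (log2 change -0.84, adjusted p = 0.0482), a call lost without any 1 of the 6 libraries (adjusted p from 0.088 to 0.199).

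Dopamine, cAMP and PKA signalling genes fell in 4 of 25 cases and rose in 0, with a median of -0.20. Fallen genes of the list numbered 0 to 3 (fewest without deleted 1) when 1 library was left out, with medians from -0.22 to -0.13. The phosphodiesterases Pde4d, Pde7b and Pde4b, which break down cAMP, changed by -0.88 (adjusted p = 0.00712), -0.50 (adjusted p = 0.0405) and -0.48 (adjusted p = 0.032). None of these 3 phosphodiesterase calls held: they were lost without control 1 for Pde7b and Pde4b (adjusted p from 0.0858 to 0.107), without control 2 for Pde7b and Pde4b (adjusted p from 0.059 to 0.0757), without control 3 for Pde7b and Pde4b (adjusted p from 0.0629 to 0.0629), without deleted 1 for all 3 (adjusted p from 0.0554 to 0.174), without deleted 2 for Pde7b and Pde4b (adjusted p from 0.0776 to 0.138) and without deleted 3 for Pde7b (adjusted p = 0.0889). Regulators of G-protein signalling, which shorten the response to a receptor, fell in 3 of 17 cases. Fallen regulators numbered 1 to 3 (fewest without control 1, control 3, deleted 1 or deleted 2) when 1 library was left out, with medians from -0.17 to -0.04. Rgs20 was at 71.2, 78.1 and 76.8 CPM in the controls and 28.04, 28.6 and 25.4 CPM in the deleted group, with no overlap and little spread. Rgs20 changed by -1.43 (SE 0.10, limma adjusted p = 0.000635) and held its call. Rgs2 and Rgs17 changed by -0.92 (adjusted p = 0.036) and -0.78 (adjusted p = 0.0304), calls lost without control 1 for both (adjusted p from 0.111 to 0.137), without control 2 for Rgs17 (adjusted p = 0.053), without control 3 for both (adjusted p from 0.0597 to 0.0629), without deleted 1 for both (adjusted p from 0.137 to 0.156), without deleted 2 for both (adjusted p from 0.0943 to 0.11) and without deleted 3 for Rgs2 (adjusted p = 0.079).

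Among 20 muscarinic, serotonin, cannabinoid, opioid and neuropeptide Y receptors 2 rose (10%) and 1 fell (5%), with a median of 0.24. The shares of all tested genes were 2.35% and 1.96%. Called receptors numbered 1 to 3 higher (fewest without control 1, deleted 1 or deleted 2) and 0 to 1 lower (fewest without control 1, control 3, deleted 1, deleted 2 or deleted 3) when 1 library was left out, with medians from 0.11 to 0.26. Npy1r, a receptor of neuropeptide Y, was at 16.9, 14.5 and 13.7 CPM in the controls and 35.98, 40.02 and 41.3 CPM in the deleted group. Npy1r changed by 1.33 (SE 0.12, limma adjusted p = 0.00192) and held its call. Npy5r, another receptor of that peptide, was at 5.23, 5.35 and 5.24 CPM in the controls and 10.9, 11.5 and 9.04 CPM in the deleted group (log2 change 0.87, adjusted p = 0.0192), a call lost without control 1 (adjusted p = 0.0684), deleted 1 (0.112) or deleted 2 (0.0901). Phospholipases C and diacylglycerol kinases, which make and remove the lipid messenger diacylglycerol, rose in 2 and fell in 2 of 23 cases (8.70% each). Called lipid enzymes numbered 1 to 2 higher (fewest without control 1, control 2, deleted 1 or deleted 2) and 0 to 3 lower (fewest without control 1, control 3, deleted 1, deleted 2 or deleted 3) when 1 library was left out, with medians from -0.05 to 0.10. Beside Plce1 these were the phospholipase Plch2 (0.56, adjusted p = 0.0396), the inactive phospholipase-like Plcl2 (-0.42, adjusted p = 0.0433) and the kinase Dgki (-0.63, adjusted p = 0.0347). None of these 3 held, with losses without control 1 for all 3 (adjusted p from 0.107 to 0.124), without control 2 for Plch2 and Plcl2 (adjusted p from 0.076 to 0.0762), without control 3 for all 3 (adjusted p from 0.0565 to 0.0748), without deleted 1 for all 3 (adjusted p from 0.161 to 0.188), without deleted 2 for all 3 (adjusted p from 0.109 to 0.158) and without deleted 3 for Plcl2 and Dgki (adjusted p from 0.0759 to 0.096).

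Of 22 GABA and glycine receptor genes 2 fell (9.09%, beside 1.96% of all tested genes) and 0 rose (median -0.20). Fallen inhibitory receptor genes numbered 1 to 3 (fewest without control 1, control 2, control 3, deleted 1 or deleted 2) when 1 library was left out, with medians from -0.27 to -0.15. Gabra4, the alpha4 subunit of extrasynaptic GABA-A receptors, was at 255, 221 and 242 CPM in the controls and 115, 122 and 137 CPM in the deleted group. Gabra4 changed by -0.94 (SE 0.10, limma adjusted p = 0.0043) and held its call. Gabra5 changed by -0.99 (adjusted p = 0.0359), a call lost without any single library but deleted 3 (adjusted p from 0.0741 to 0.13). Of 31 glutamate receptor genes 4 fell (12.9%) and 2 rose (6.45%), with a median of -0.10, beside 1.96% and 2.35% of all tested genes. Called glutamate receptor genes numbered 0 to 3 higher (fewest without control 1, deleted 1, deleted 2 or deleted 3) and 0 to 3 lower (fewest without deleted 1 or deleted 2) when 1 library was left out, with medians from -0.14 to -0.06. Gria2, the AMPA receptor subunit that blocks calcium entry, was at 1363, 1124 and 1313 CPM in the controls and 698, 762 and 816 CPM in the deleted group (log2 change -0.74, adjusted p = 0.0135), and the metabotropic receptor Grm5 at 466, 313 and 415 CPM in the controls and 217, 222 and 252 CPM in the deleted group (log2 change -0.77, adjusted p = 0.031). The auxiliary subunits Cacng3 and Neto2 changed by -0.87 (adjusted p = 0.0254) and -0.82 (adjusted p = 0.0203). The kainate receptor subunit Grik4 rose by 1.33 (adjusted p = 0.0254) and the presynaptic receptor Grm8 by 0.64 (adjusted p = 0.0223). None of the 6 held. They were lost without control 1 for all but Cacng3 (adjusted p from 0.0587 to 0.0989), without control 2 for Cacng3 and Grik4 (adjusted p from 0.0522 to 0.0535), without control 3 for Grm5 (adjusted p = 0.0646), without deleted 1 for all 6 (adjusted p from 0.0806 to 0.138), without deleted 2 for all 6 (adjusted p from 0.0618 to 0.111) and without deleted 3 for Grm5, Cacng3, Grik4 and Grm8 (adjusted p from 0.0534 to 0.0687).

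Potassium channel genes were called in both directions, 6 of 49 higher and 7 lower (median 0.15), beside 2.35% and 1.96% of all tested genes. Called potassium channels numbered 1 to 6 higher (fewest without control 1, deleted 1, deleted 2 or deleted 3) and 1 to 4 lower (fewest without deleted 2) when 1 library was left out, with medians from 0.08 to 0.21. Kcnj2, the inward rectifier that holds medium spiny neurons at a negative resting potential, was at 84.96, 69.97 and 91.1 CPM in the controls and 31.1, 41.8 and 40.8 CPM in the deleted group. Kcnj2 changed by -1.10 (SE 0.15, limma adjusted p = 0.00944) and held its call. Kcnh1, a voltage-gated channel of the ether-a-go-go family, was at 103, 113 and 115 CPM in the controls and 199.8, 232 and 188 CPM in the deleted group. Kcnh1 changed by 0.89 (SE 0.10, limma adjusted p = 0.00541) and held its call. The silent subunit Kcng1 changed by -1.30 (adjusted p = 0.0132), a call lost without deleted 2 (adjusted p = 0.053). Kcnq3, of the M current, changed by -0.64 (adjusted p = 0.0304), and Kcnc1, of fast-spiking Kv3 channels, by 0.59 (adjusted p = 0.032), calls lost without control 1 for both (adjusted p from 0.0898 to 0.11), without control 2 for both (adjusted p from 0.0568 to 0.0621), without control 3 for Kcnq3 (adjusted p = 0.0629), without deleted 1 for both (adjusted p from 0.107 to 0.138), without deleted 2 for both (adjusted p from 0.0851 to 0.0862) and without deleted 3 for Kcnc1 (adjusted p = 0.079). Sodium and calcium channel genes were called in 5 of 28 cases, 2 higher (7.14%) and 3 lower (10.7%), beside 2.35% and 1.96% of all tested genes. Called sodium and calcium channels numbered 0 to 5 higher (fewest without control 1, deleted 1 or deleted 2) and 0 to 3 lower (fewest without control 1, control 3, deleted 1, deleted 2 or deleted 3) when 1 library was left out, with medians from -0.04 to 0.07. Hcn4, a pacemaker channel, was at 0.821, 0.764 and 1.87 CPM in the controls and 7.24, 4.15 and 4.26 CPM in the deleted group (log2 change 1.53, adjusted p = 0.0218), and the sodium channel subunits Scn3a and Scn3b changed by -0.68 (adjusted p = 0.043) and -0.52 (adjusted p = 0.0255). Those calls were lost without control 1 for all 3 (adjusted p from 0.0843 to 0.153), without control 3 for Scn3a and Scn3b (adjusted p from 0.0565 to 0.0909), without deleted 1 for all 3 (adjusted p from 0.0868 to 0.184), without deleted 2 for all 3 (adjusted p from 0.0526 to 0.141) and without deleted 3 for Scn3a and Scn3b (adjusted p from 0.0563 to 0.0597).

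Of 42 vesicle release genes 6 rose (14.3%) and 2 fell (4.76%), with a median of 0.17, beside 2.35% and 1.96% of all tested genes. Called vesicle genes numbered 0 to 6 higher (fewest without deleted 1 or deleted 2) and 1 to 3 lower (fewest without control 1, deleted 1 or deleted 2) when 1 library was left out, with medians from 0.14 to 0.26. Unc13c, a vesicle priming factor, was at 89.5, 69.8 and 61.4 CPM in the controls and 37.3, 32.8 and 31.8 CPM in the deleted group. Unc13c changed by -1.08 (SE 0.15, limma adjusted p = 0.00962) and was the only call of the list that held. The vesicle protein Sv2c was at 279, 331 and 221 CPM in the controls and 543, 571 and 437 CPM in the deleted group (log2 change 0.91, adjusted p = 0.0254) and the small GTPase Rab3b at 99.6, 80.2 and 71.2 CPM in the controls and 145, 178 and 139.7 CPM in the deleted group (log2 change 0.88, adjusted p = 0.0199). The calcium sensors Syt7 and Syt6 went in opposite directions, by 0.73 (adjusted p = 0.0237) and -0.77 (adjusted p = 0.0201). The calls were lost without control 1 for all but Rab3b (adjusted p from 0.0788 to 0.0912), without deleted 1 for all 4 (adjusted p from 0.077 to 0.122), without deleted 2 for all 4 (adjusted p from 0.0673 to 0.0922) and without deleted 3 for Syt7 (adjusted p = 0.0603). Synaptic adhesion organizers fell in 6 (16.7%) and rose in 1 (2.78%) of 36 cases (median -0.17), beside 1.96% and 2.35% of all tested genes. Called adhesion organizers numbered 0 to 3 higher (fewest without control 1, deleted 1, deleted 2 or deleted 3) and 0 to 4 lower (fewest without control 1, control 3, deleted 1 or deleted 2) when 1 library was left out, with medians from -0.24 to -0.10. Examples are Lrrtm1 (-0.59, adjusted p = 0.0392) and Flrt3 (-0.55, adjusted p = 0.0338) among those lower and Slitrk1 (1.01, adjusted p = 0.0336) as the one higher, calls lost without control 1 for all 3 (adjusted p from 0.0858 to 0.121), without control 2 for Lrrtm1 (adjusted p = 0.0779), without control 3 for Lrrtm1 and Flrt3 (adjusted p from 0.0625 to 0.0801), without deleted 1 for all 3 (adjusted p from 0.0845 to 0.15), without deleted 2 for all 3 (adjusted p from 0.0617 to 0.121) and without deleted 3 for all 3 (adjusted p from 0.0759 to 0.079). Postsynaptic scaffolds and kinases fell in 3 of 31 (9.68%) and rose in 1 (3.23%), beside 1.96% and 2.35% of all tested genes. The risen gene was the kinase Camk2g (0.64, adjusted p = 0.0218), a call lost without control 1, deleted 1, deleted 2 or deleted 3 (adjusted p from 0.0563 to 0.0862). Called scaffolds and kinases numbered 0 to 1 higher (fewest without control 1, deleted 1, deleted 2 or deleted 3) and 0 to 1 lower (fewest without deleted 1, deleted 2 or deleted 3) when 1 library was left out, with medians from -0.10 to 0.08. Cadherins fell in 3 of 24, Cdh6, Cdh8 and Pcdh20, by -0.90 (adjusted p = 0.0462), -0.56 (adjusted p = 0.0254) and -0.67 (adjusted p = 0.0462), calls lost without control 1 for Cdh8 and Pcdh20 (adjusted p from 0.0591 to 0.135), without control 2 for Cdh6 (adjusted p = 0.0934), without control 3 for Cdh6 and Pcdh20 (adjusted p from 0.0956 to 0.0957), without deleted 1 for all 3 (adjusted p from 0.0799 to 0.163), without deleted 2 for all 3 (adjusted p from 0.101 to 0.158) and without deleted 3 for all 3 (adjusted p from 0.0607 to 0.109). The share of cadherins that fell was 12.5%, beside 1.96% of all tested genes. Fallen cadherins numbered 0 to 2 (fewest without deleted 1, deleted 2 or deleted 3) when 1 library was left out, with medians from -0.19 to 0.00.

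**Figure D4:**
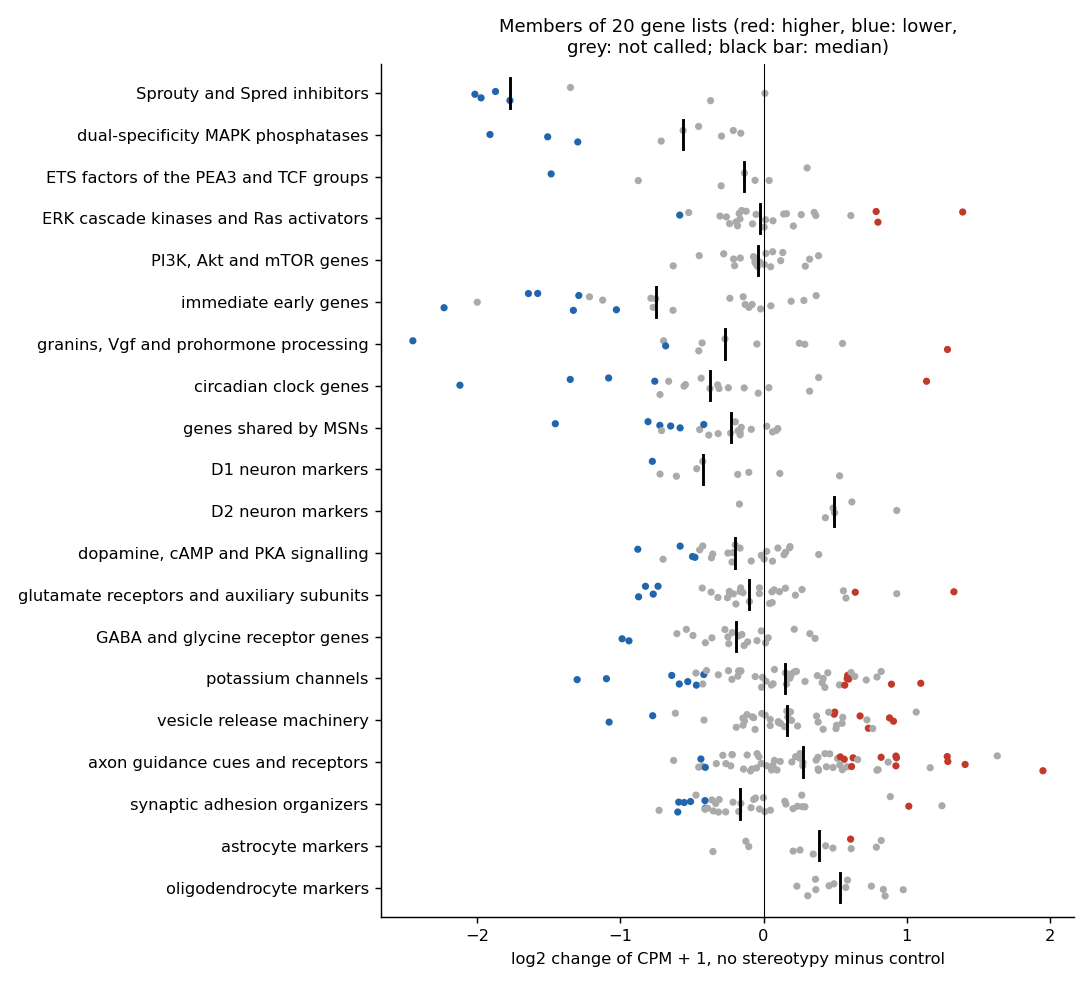
Log2 change of CPM + 1, deleted group without stereotypy minus control (x axis), of each tested member of 20 gene lists (rows). Red points are called higher, blue lower and grey not called, and the black bar is the list's median, which is lowest for Sprouty and Spred inhibitors (-1.77) and immediate early genes (-0.75).

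Of 22 cholesterol synthesis genes 1 rose (4.55%, beside 2.35% of all tested genes), Dhcr7, the last enzyme of the pathway, from 23.3, 21.6 and 25.7 CPM to 56.2, 61.8 and 62.7 CPM (log2 change 1.32, SE 0.11, limma adjusted p = 0.00128), a call that held. Of 8 cyclins and cell cycle inhibitors, Cdkn1a, the inhibitor p21, rose by 0.71 (adjusted p = 0.00962) beside the fall of Ccnd2, a call lost without deleted 1 (adjusted p = 0.0662) or deleted 2 (0.0528). Nuclear-encoded respiratory chain subunits passed in 0 of 47 cases (0 with edgeR, 6 higher at an unadjusted p under 0.05, median 0.12), and heat shock genes in 0 of 19 (0 with edgeR, 2 at an unadjusted p under 0.05). Of 45 ribosomal protein genes 1 rose (2.22%, beside 2.35% of all tested genes), Rplp0 (0.74, adjusted p = 0.0378), a call lost without any single library but control 2 (adjusted p from 0.0806 to 0.162). The summed level of the ribosomal protein genes was 1341, 1315 and 1402 CPM in the controls and 1512.5, 1613 and 1565 CPM in the deleted group, without overlap and with a median log2 change of 0.10 (0.06 without control 2 and 0.16 without control 3). The mitochondrial mRNAs mt-Co2, mt-Atp6, mt-Atp8 and mt-Nd4l were listed at 0 in all 6 libraries, and 0 of the 7 tested passed (0 with edgeR, 1 at an unadjusted p under 0.05).

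Markers of other cells were compared because the precipitate can hold their RNA. The sums of all 9 marker lists drawn for single cell types overlapped between the groups, as the plot of marker sums shows. Oligodendrocyte markers summed to 587, 907 and 1220.5 CPM in the controls and 1186, 769.8 and 1752 CPM in the deleted group, and all 12 had a log2 change above 0 (median 0.53, 0.22 without deleted 3 and 0.87 without control 3) without a call (0 with limma and edgeR, 0 at an unadjusted p under 0.05). Precursor markers, at 10.7 to 20.6 and 16.02 to 28.2 CPM in sum, had a median of 0.46 (0.32 without deleted 1 and 0.66 without deleted 2), also with 0 of 6 called (0 with edgeR, 1 at an unadjusted p under 0.05). Of 12 astrocyte markers 1 rose (median 0.39, 0.19 without deleted 1 and 0.54 without deleted 2), the glycolytic enzyme Aldoc, at 22.9, 19.7 and 22.4 CPM in the controls and 35.2, 30.3 and 35.2 CPM in the deleted group (log2 change 0.61, adjusted p = 0.0313), a call lost without any 1 of the 6 libraries (adjusted p from 0.053 to 0.156). Gfap, a defining astrocyte gene, was at 1.01, 1.95 and 2.18 CPM in the controls and 5.22, 2.55 and 3.72 CPM in the deleted group, and Aqp4, another, at 1.23, 1.58 and 1.502 CPM in the controls and 3.67, 1.74 and 2.09 CPM in the deleted group. Both were low and did not pass (adjusted p = 0.126 and 0.272). In both, all 3 libraries of the deleted group lay above the controls, and the groups lay apart in 25.8% of all tested genes. Astrocyte markers summed to 511, 454 and 561 CPM in the controls and 478, 452 and 567 CPM in the deleted group. Of the 12 astrocyte markers 3 had a log2 change below 0. Cx3cr1, a defining microglia gene, was at 3.37, 1.81 and 1.59 CPM in the controls and 2.89, 1.37 and 2.39 CPM in the deleted group, with overlap. Of 8 microglia markers and 12 striatal interneuron markers 0 passed (0 with edgeR in each, and 1 and 0 at an unadjusted p under 0.05). Their medians were -0.25 (-0.37 without control 2 and -0.02 without control 1) and 0.17 (-0.09 without control 2 and 0.74 without control 3). Of 10 markers of cortical excitatory neurons 1 rose (median 0.50, 0.03 without control 2 and 0.89 without control 3), the transcription factor Cux2, at 13.6, 7.61 and 10.1 CPM in the controls and 26.03, 25.1 and 28.5 CPM in the deleted group (log2 change 1.30, adjusted p = 0.0125), a call lost without deleted 1 (adjusted p = 0.0662). The glutamate transporter Slc17a7, the defining gene of that list, named after its values were seen, was at 339, 218 and 658 CPM in the controls and 506, 475 and 1139.6 CPM in the deleted group and did not pass (adjusted p = 0.332). The part of RNA from these cells in the results above was not tested.

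**Figure D5:**
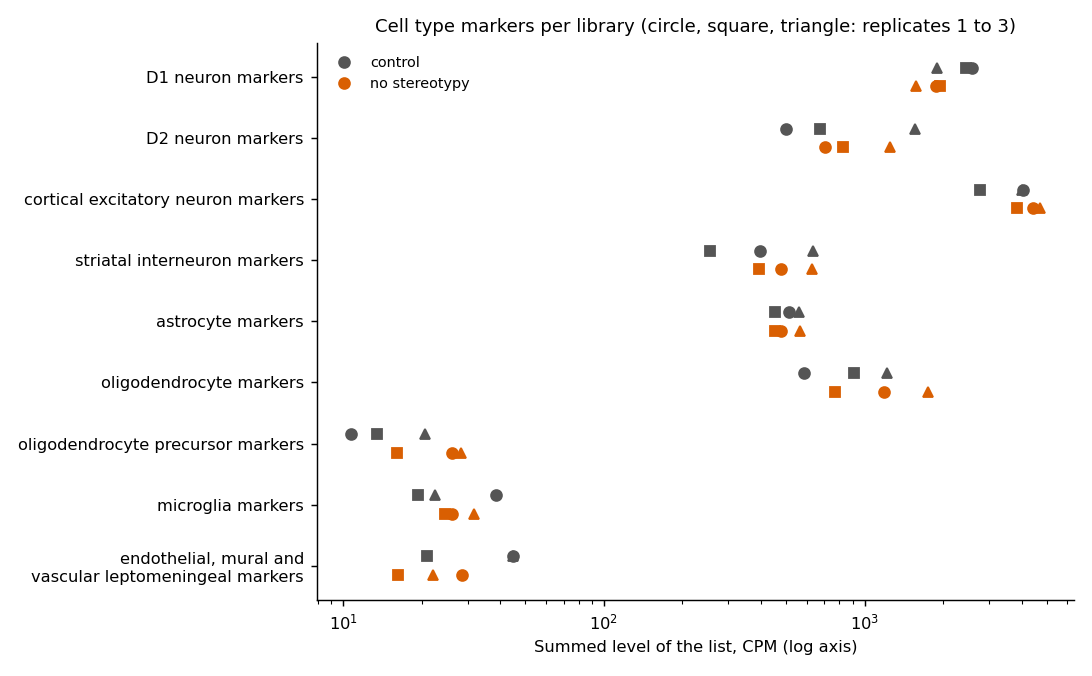
Summed level in CPM (x axis, log scale) of 9 cell type marker lists (rows) in each of the 3 control libraries (grey) and 3 libraries without stereotypy (orange). The orange and grey points overlap in all 9 rows, and replicate 3 of each group has the highest sum of D2 neuron markers.

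With the mean level of glial and vascular markers as a covariate, 300 genes were called (160 higher, 140 lower), and 277 of the 575 kept their call and direction. Of the 127 called genes that the naming rule picked, 74 kept their call and 53 did not. Oligodendrocyte markers are part of this covariate, so their median with it (0.09) is no separate check. The medians of cortical neuron and interneuron markers, which are not part of it, were 0.01 and -0.14. Among the genes above, Ntrk2, all 4 Sprouty and Spred genes, Dusp6, Vgf, Ccnd2, Pou3f1, Fst, Per2, Plce1, Ceacam10, Cxcl14, Ntn1, Chga and Pea15a were among the 74. Among the genes described above, the calls that ended with it included those of Egr2, Egr4, Fosb and Dusp5 (adjusted p from 0.0506 to 0.06) in the ERK and early gene lists, Rasgrf2, Ksr1 and Ntrk3 (adjusted p from 0.0579 to 0.101) among signalling genes and Ciart, Bhlhe40 and Rora (adjusted p from 0.0557 to 0.0687) among clock genes. Also ended were Ptpn5, Arpp19, Ryr1, Foxp1, Eya1, Epha4, Oprm1, Pde7b and Pde4b (adjusted p from 0.0506 to 0.131) among striatal genes, Gabra5, Grm8, Kcnq3, Kcnc1 and Scn3b (adjusted p from 0.0563 to 0.0744) among receptors and channels, Lrrtm1, Flrt3, Camk2g, Cdh6, Cdh8 and Pcdh20 (adjusted p from 0.0506 to 0.0995) among synaptic genes and Robo3 and Robo2 (adjusted p from 0.0547 to 0.0871) among guidance genes. Of the remaining genes described above it ended those of Fmod, Tdrd5, Rplp0, Aldoc, Plch2, Plcl2 and Dgki (adjusted p from 0.062 to 0.126).

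Called genes are also described by sequence composition and length, without a test. The median GC content of exons was 53.9% for the 313 risen genes, 46.8% for the fallen ones with a value and 49.7% for all tested genes. The median span on the genome was 32.5 kb for risen, 59.4 kb for fallen and 23.0 kb for all tested genes. When a trend over GC content was removed from each library, an alternative chosen after seeing the data, 536 genes were called (245 higher, 291 lower), and 438 of the 575 kept their call and direction. Of the genes named above, the calls of Ksr1, Ntrk3, Rora, Calb1, Epha4, Pde7b, Kcnc1, Flrt3, Cdh6, Cdh8, Pcdh20, Robo2, Ntsr1, Fmod, Tdrd5, Plch2 and Plcl2 (adjusted p from 0.0527 to 0.195) ended with it. The part of GC content and length in the group difference was not tested further.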

How the data were processed

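Per the labels' protocols, RNA of HA-precipitated polyribosomes from dorsal striatum was made into libraries with the NEBNext Ultra kit. The authors deposited CPM values per gene, and per the submitters' processing notes TopHat and GRCm38 were used; no counter, annotation or strand setting is given in the sources used here. Multiplying the deposited CPM by a library's depth gave whole reads for 100% of values (within 0.1 reads), so depth was recovered. Of 47729 identifiers, 47224 matched the gene name table, and 505 did not.

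Genes with 1 CPM or more in at least 3 of the 6 libraries were tested on log2(CPM + 1) with limma 3.58.1 (R 4.3.3, variance trend, Benjamini-Hochberg adjustment over all 13342 genes, threshold 0.05, two-sided). Every adjusted p in the text is from limma unless another tool is named. edgeR 4.0.16 and DESeq2 1.42.0 on the recovered reads, and the settings given in the closing section, were alternatives. The labels call the replicates biological triplicates without saying that each came from a separate animal. The p-values thus measure the spread between these samples, which may in part be technical. The limit of 3 reads set for a count of 0 covers counting error only. Data were simulated for this comparison on 13342 genes, with 200 changed, all drawn from genes with a mean of at least 5 CPM. The test recovered 37.3% of them at a 1.5-fold change, 79.3% at 2-fold and 98.0% at 3-fold, while 11.3% of its calls were unchanged genes. Recovery of genes below that mean was not tested.

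The genes named were the 12 largest rises and falls among called protein-coding genes of at least 5 CPM, Ntrk2, up to 4 called members per direction of each list, the most abundant marker of each cell type, the called genes with all controls under 0.5 CPM, and the most abundant called genes. Ntrk3, Egr1, Egr4, Fos, Arc, Bdnf, Spry1, Spry4, Il17rd, Pdyn, Drd2, Tac1, Gfap, Aqp4, Cldn5 and Slc17a7 fall outside that rule and were chosen after their values were seen. The members and lists were chosen with earlier results of these data known. Promoter windows came from RefSeq (GRCm38.p6). Overlaps with other annotated genes also cover 14.3% of the exon bases of Penk, 5.13% to 8.995% of those of Syt7, Rgs20, Id4, Ptpn6, Cdkn1a, Ccnd2, Pou3f1, Syt6 and Rab3b, and less of others (Spred3, Pea15a and Gabra4 among them), and reads there cannot be assigned with certainty. Some members of the lists are counted but not reported by name here.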

Additional observations from a re-analysis of the deposited data

How the results depend on the processing

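Of the 313 genes higher and 262 lower, the counts became 95 and 92 without a filter on low values, 160 and 140 when the glial and vascular marker level was a covariate, 529 and 420 in a fit to all 9 libraries, 794 and 677 with array weights, and 564 and 623 with DESeq2. Leaving out 1 library gave 37 to 302 higher and 39 to 234 lower. Other pseudocounts, a filter on a mean of 5 CPM, rescaling by median of ratios or TMM, quantile normalization, edgeR and the removal of a trend over GC content or gene span (the last 2 chosen after seeing the data) kept both counts within 1.5 times. With median of ratios the median change of all genes moved from 0.03 to 0.00. With the replicate number as a block the counts were 821 and 548, but the labels do not say that the numbers pair the samples. Deviations of same-numbered libraries correlated at 0.058, 0.353 and 0.419. For control 2 and control 3 the same-numbered library of the deleted group was the closest. Control 1 correlated about equally with deleted 1 (0.058) and deleted 3 (0.060). Whether the numbers mark a batch was not tested. Of the 127 called genes that the naming rule picked, 0 changed direction under these settings, while genes without a call did, such as Arc. In these libraries 3 reads correspond to 0.0739 to 0.0920 CPM, which limits what can be said of genes near that level.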
